A study of Mus musculus with 56 samples.

Results

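The cytosolic sulfotransferases and the enzymes that make their co-substrate were followed in mouse liver RNA across thyroid states. A total of 9 genes were chosen by name out of 23813 genes in the table, namely 7 sulfotransferase genes (Sult1a1, Sult1b1, Sult1c2, Sult1d1, Sult1e1, Sult3a1 and Sult5a1) and both PAPS synthase genes (Papss1 and Papss2). All 9 had enough RNA to be tested in each comparison. The expression values are RPKM, reads per kilobase of transcript scaled to the aligned reads of each library, from poly(A) RNA-seq.

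Sulfotransferases attach a sulfonate group to hormones, drugs, bile acids and phenols, which makes them more soluble and usually inactive. The group comes from PAPS (3′-phosphoadenosine 5′-phosphosulfate), which PAPS synthases build from inorganic sulfate and ATP. In liver this system clears estrogens and catecholamines, and sulfation of iodothyronines marks thyroid hormone itself for breakdown by deiodination.

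The groups hold 4 libraries each, from 4 independent male mice. Hypothyroid WT mice received a low iodine diet containing propylthiouracil (PTU), which blocks thyroid hormone synthesis, and vehicle injections. T3-treated WT mice received the same diet and injections of triiodothyronine (T3) over the last days, and were hyperthyroid. Hypothyroid L-NCOR1ΔID mice were kept on PTU without T3 and carried a liver-specific mutant of the corepressor NCOR1 lacking the domains that bind the thyroid hormone receptor (TR). All 3 groups therefore received PTU, and no untreated euthyroid group and no T3-treated mutant group was analysed here. The mutant was kept on a mixed C57BL/6;129S background. The paper names a background for WT mice only as littermates of another line (C57BL/6J;NIH Black Swiss). The background of the WT mice used for RNA is not given, so that strain and genotype cannot be told apart. Ages are known only as averages over more mice than were sequenced, a few months in each group and lowest in the mutant, so that age and genotype cannot be told apart. The driver of the liver-specific mutation is not given in the sources used here.

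The labels were checked on known genes. Dio1, the hepatic deiodinase induced by T3, read from 459 to 641 RPKM in T3-treated WT mice and from 0.719 to 57.7 RPKM in hypothyroid WT mice, where replicate 3 was the highest. Thrsp, a T3-induced lipogenic gene, read from 847 to 2360 RPKM with T3 from 209 to 490 RPKM in hypothyroid WT mice and from 454 to 1081 RPKM in the mutant, which overlapped with both. Ncor1 itself read from 12.1 to 13.9 RPKM in the mutant and from 14.1 to 15.6 RPKM in hypothyroid WT mice, and values per gene cannot show the lost domains. Sequencing depth relative to hypothyroid WT replicate 1 ranged from 0.679 to 0.833 in T3-treated WT, from 0.933 to 1.22 in hypothyroid WT and from 1.21 to 1.37 in mutant libraries. The median log2 fold change of all tested genes with T3 was 0.23, so that a gene at that value moved like the median gene, and scaling the libraries by the median of gene ratios brought it to 0.04. With that scaling, T3 calls over all genes split into 804 higher and 641 lower in place of 1155 and 484. The hepatocyte marker albumin (Alb) was abundant in every group, with means of 31804 RPKM in hypothyroid WT, 14325 RPKM in T3-treated WT and 22674 RPKM in mutant mice.

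The stretch upstream of each start site was read from the NCBIM37 assembly (the mm9 build of the files), with transcription starts from GENCODE M1. A half-site of the TR response element (AGGTCA, or TGACCT on the other strand, both searched) was found in the 250 bases upstream of 3 of the 9 genes, Sult1b1, Sult1e1 and Papss2, and in 12.6% of 22238 protein-coding promoters. These 3 upstream stretches are shown because they hold a half-site, and that of Sult1d1 because it lies between Sult1b1 and Sult1e1. They run 5′ to 3′ on the strand of the gene and end at the base before the start site, with the half-site in capitals.
Sult1b1, chr5:87967221-87967470, minus strand: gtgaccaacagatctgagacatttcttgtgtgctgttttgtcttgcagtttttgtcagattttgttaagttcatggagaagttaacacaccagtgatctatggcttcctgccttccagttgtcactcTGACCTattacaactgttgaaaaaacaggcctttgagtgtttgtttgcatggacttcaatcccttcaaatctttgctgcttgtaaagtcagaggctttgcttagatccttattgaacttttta
Sult1d1, chr5:87998053-87998302, minus strand: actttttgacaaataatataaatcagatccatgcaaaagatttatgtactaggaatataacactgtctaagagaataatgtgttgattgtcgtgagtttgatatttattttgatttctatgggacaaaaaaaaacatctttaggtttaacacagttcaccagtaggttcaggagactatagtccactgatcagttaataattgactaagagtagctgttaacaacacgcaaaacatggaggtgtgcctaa
Sult1e1, chr5:88020637-88020886, minus strand: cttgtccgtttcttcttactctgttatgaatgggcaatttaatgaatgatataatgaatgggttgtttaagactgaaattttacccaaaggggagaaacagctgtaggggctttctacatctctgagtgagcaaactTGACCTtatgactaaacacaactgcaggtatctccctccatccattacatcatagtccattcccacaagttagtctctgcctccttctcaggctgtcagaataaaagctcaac
Papss2, chr19:32694245-32694494, plus strand: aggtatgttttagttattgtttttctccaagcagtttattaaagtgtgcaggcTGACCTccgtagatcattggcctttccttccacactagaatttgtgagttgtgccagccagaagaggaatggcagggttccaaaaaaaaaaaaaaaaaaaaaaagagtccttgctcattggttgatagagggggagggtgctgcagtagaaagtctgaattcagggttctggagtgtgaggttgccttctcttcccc

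The half-site begins 123 bases upstream of the Sult1b1 start, 113 bases upstream of the Sult1e1 start and 197 bases upstream of the Papss2 start. It therefore stands upstream of a gene that fell with T3 as well as of 2 genes that rose. Sult1d1, Sult3a1 and Sult5a1 also rose with T3 and had no half-site in this window. The upstream stretches of the sulfotransferase genes held few CpG dinucleotides, from 0 to 4 in 250 bases, and that of Papss2 held 1. Papss1 differed with 20 CpG dinucleotides and a GC content of 65.2%, while the median promoter held 8 and had a GC content of 54%. These are descriptions of letters in a window and name no bound site.

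The first comparison asked how the sulfation genes differ between hyperthyroid and hypothyroid WT liver. Papss2, Sult1d1, Sult1e1, Sult3a1 and Sult5a1 rose with T3 and Sult1b1 fell, while Papss1, Sult1a1 and Sult1c2 did not pass the threshold, which asked for a log2 fold change over 1 in size together with a Benjamini-Hochberg adjusted p below 0.01 in limma. The 5 genes that rose compare with 8.28% of 13941 tested genes that rose, and the 1 that fell with 3.47% that fell, or 11.8% in either direction. Groups did not overlap and T3 was higher for 6 of the 9 genes, which 35.8% of tested genes also showed, and T3 was lower for Sult1b1, which 10.8% showed. The median log2 fold change was 1.05 over the 9 genes and 0.23 over all tested genes. In RNA from whole liver, fewer cells of a type and less RNA per cell cannot be told apart.

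**Figure D1:**
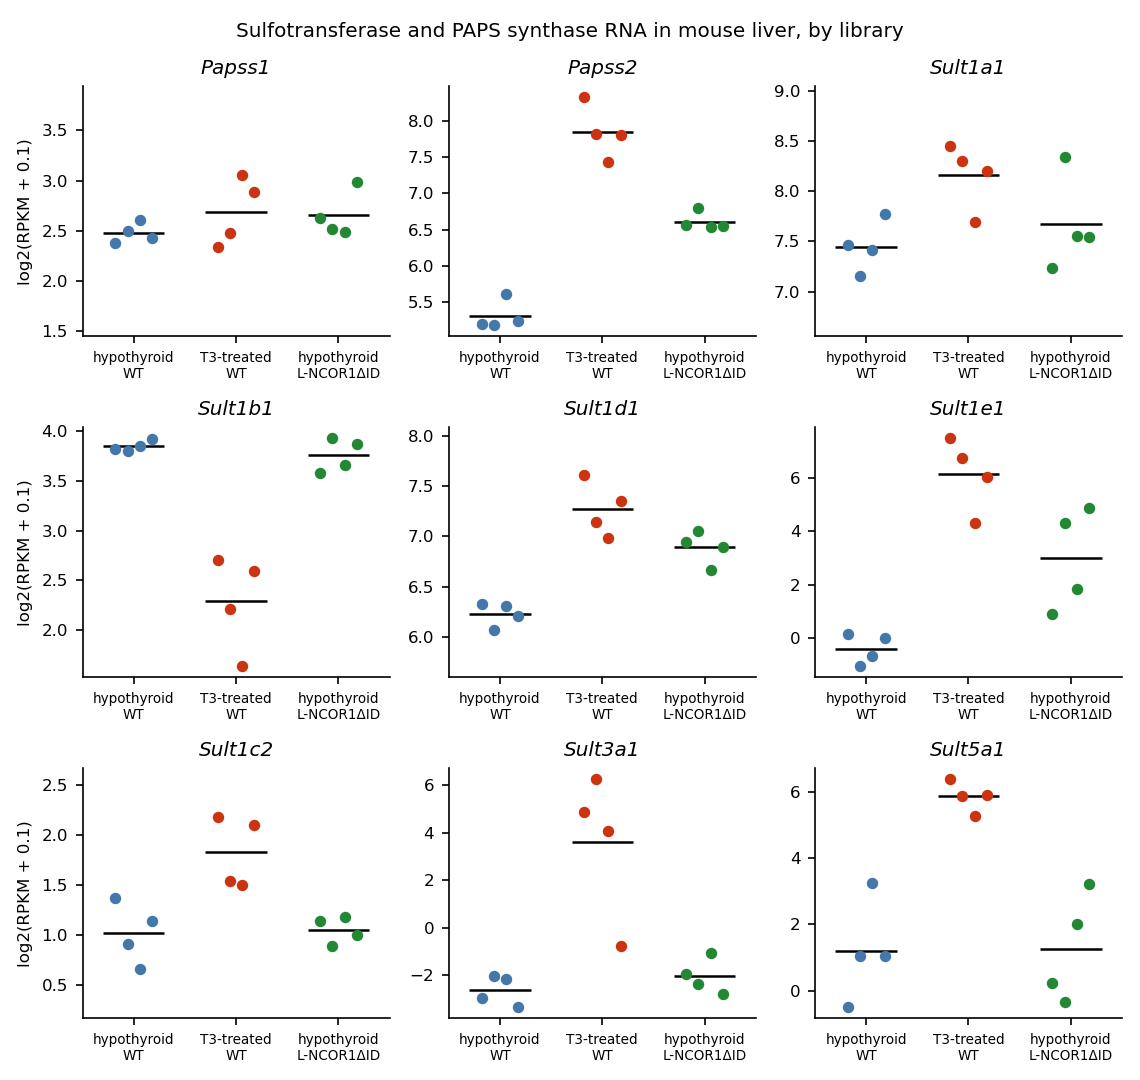
Level of each gene in each library as log2(RPKM + 0.1), with 4 points per group in replicate order and a line at the group mean on that scale. Axes differ between panels. Papss2, Sult1d1, Sult1e1, Sult3a1, Sult5a1 and Sult1c2 sit higher in all 4 T3-treated libraries than in any hypothyroid WT library, and Sult1b1 sits lower.

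Of the PAPS synthase genes, Papss2 had the higher RNA level in every library. Papss2 RNA read 36.7, 36.4, 49.0 and 37.7 RPKM in hypothyroid WT replicates 1 to 4 and 320, 226, 172 and 223 RPKM in T3-treated WT replicates 1 to 4. Every T3-treated library lay above every hypothyroid one, and the lowest T3-treated library was replicate 3. Papss2 rose by 2.53 ± 0.18 on the log2 scale (SE, n = 4 and 4), with an adjusted p of 1.6e-05 from limma.

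Papss1, which encodes the other PAPS synthase, read 5.09, 5.54, 5.98 and 5.28 RPKM in hypothyroid WT and 4.94, 5.46, 8.21 and 7.27 RPKM in T3-treated WT replicates. The groups overlapped, and the log2 fold change of 0.21 ± 0.16 had an adjusted p of 0.28 from limma. It was close to the median gene, at 0.01 after scaling by the median of gene ratios. The ratio of Papss2 to Papss1 RPKM ranged from 6.57 to 8.20 in hypothyroid WT, from 21.0 to 64.8 in T3-treated WT and from 11.9 to 19.9 in mutant libraries. The spread of the ratio within T3-treated mice came from both genes, since replicate 1 had the most Papss2 and the least Papss1, and replicate 3 the least Papss2 and the most Papss1.

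Sult1e1 encodes the estrogen sulfotransferase. Its RNA read 1.02, 0.385, 0.520 and 0.896 RPKM in hypothyroid WT and 176, 106, 19.5 and 65.2 RPKM in T3-treated WT replicates 1 to 4. The groups did not overlap, although the T3-treated libraries themselves spanned a wide range (SD 66.5 RPKM around a mean of 91.7 RPKM). Sult1e1 rose by 6.52 ± 0.60 on the log2 scale (adjusted p = 5.4e-05, limma), rank 7 from the highest of 13941 tested genes.

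Sult5a1 is a sulfotransferase whose substrates are little known. It read 0.609, 1.95, 9.41 and 1.95 RPKM in hypothyroid WT and 83.4, 58.9, 39.0 and 60.1 RPKM in T3-treated WT replicates. Hypothyroid WT replicate 3, which also had the highest Dio1 of its group, was the highest hypothyroid library, and it remained below every T3-treated library. Sult5a1 rose by 4.66 ± 0.65 on the log2 scale (adjusted p = 0.00049, limma), and by 5.34 without that library.

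Sult3a1 encodes an amine sulfotransferase that is known as female-biased in mouse liver. It read 0.029, 0.148, 0.126 and 0 RPKM in hypothyroid WT and 29.4, 75.7, 16.9 and 0.492 RPKM in T3-treated WT replicates 1 to 4. The fourth T3-treated library was thus close to the hypothyroid ones while the other 3 were far above them. From the size of the smallest steps between values, these levels correspond to 1, 5, 4 and 0 reads in hypothyroid WT, within 0.054 of whole numbers, and to about 809, 2061, 389 and 14 reads in T3-treated WT. Sult3a1 rose by 6.22 ± 1.26 on the log2 scale (adjusted p = 0.0034, limma), the widest error of the 9 genes. Only 2 of 4 hypothyroid libraries reached 0.1 RPKM, so that the gene was tested because of its level with T3. The fold change depends on the value added before taking logs, and was 3.88 with 1 RPKM added (adjusted p = 0.011 in limma, range over alternatives 4.2e-05 to 0.012) and 7.77 with 0.01 added. Without T3-treated replicate 3, hypothyroid replicate 1 or hypothyroid replicate 4 the adjusted p was between 0.011 and 0.012.

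Sult1d1, which acts on catecholamines, read 80.1, 67.0, 79.0 and 73.9 RPKM in hypothyroid WT and 196, 141, 127 and 163 RPKM in T3-treated WT replicates. The groups did not overlap. The rise of 1.05 ± 0.13 on the log2 scale (adjusted p = 0.00028, limma) was just past the size threshold and fell to 0.84 after scaling by the median of gene ratios, to 0.93 without T3-treated replicate 1 and to 0.99 without hypothyroid replicate 2, where it was no longer called.

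Sult1b1, which sulfates thyroid hormones and other phenols, was the gene that fell. It read 14.0, 13.9, 14.4 and 15.1 RPKM in hypothyroid WT and 6.44, 4.54, 3.01 and 5.93 RPKM in T3-treated WT replicates. The coefficient of variation among hypothyroid libraries was 3.83%, and all T3-treated libraries were lower. Sult1b1 fell by 1.56 ± 0.21 on the log2 scale (SE; adjusted p = 0.00035, limma).

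Sult1a1, the main phenol sulfotransferase, had the highest RNA level of the 9 genes in every group. It read 176, 142, 170 and 218 RPKM in hypothyroid WT and 350, 317, 207 and 294 RPKM in T3-treated WT replicates. T3-treated replicate 3 lay below hypothyroid replicate 4, so the groups overlapped. The log2 fold change of 0.72 ± 0.18 (adjusted p = 0.0092, limma) was under the size threshold, and the adjusted p was 0.073 after scaling by the median of gene ratios (range over alternatives 0.0021 to 0.073).

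Sult1c2, a low-abundance member of the 1C subfamily, read 2.496, 1.79, 1.48 and 2.11 RPKM in hypothyroid WT and 4.44, 2.81, 2.73 and 4.20 RPKM in T3-treated WT replicates. The groups did not overlap, and the log2 fold change of 0.81 ± 0.21 had an adjusted p of 0.011 from limma, which missed the threshold.

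These changes altered the make-up of sulfotransferase RNA, given here as shares of the summed RPKM of the 7 genes. The sum was 272 ± 34.7 RPKM in hypothyroid WT, 640.2 ± 182 RPKM in T3-treated WT and 365 ± 92.5 RPKM in mutant mice (SD, n = 4). Sult1a1 and Sult1d1 together made up most of it throughout. The share of Sult1a1 was 64.6% ± 3.64 in hypothyroid WT and 46.4% ± 4.10 with T3, while that of Sult1e1 was 0.254% ± 0.094 and 12.9% ± 6.79. Sult5a1 accounted for 9.43% ± 0.786 with T3, and Sult1b1 for 5.32% ± 0.547 without and 0.782% ± 0.153 with T3. Shares of 1 sum depend on each other and were not tested.

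**Figure D2:**
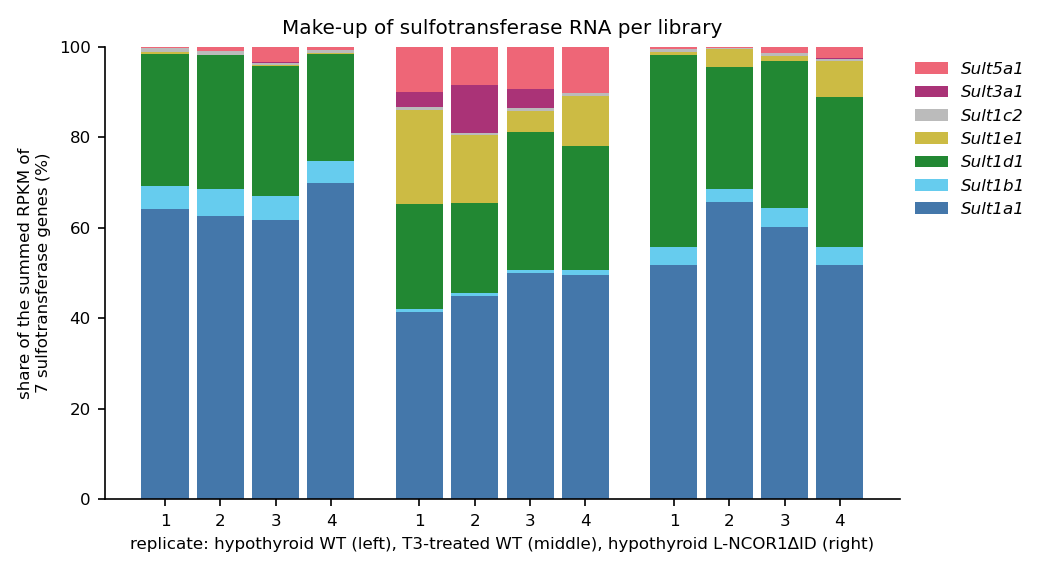
Share of each of the 7 sulfotransferase genes in their summed RPKM, in percent, with 1 bar per library and replicates 1 to 4 from left to right in each group. Sult1e1, Sult3a1 and Sult5a1 take a visible share in T3-treated libraries, except for Sult3a1 in replicate 4, and the share of Sult1b1 is smallest there.

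The order of levels also differed. In hypothyroid WT mice it ran Sult1a1, Sult1d1, Papss2, Sult1b1, Papss1, Sult5a1, Sult1c2, Sult1e1 and Sult3a1 by mean RPKM, and neighbours in this order did not overlap in range except Papss1 with Sult5a1 and Sult5a1 with Sult1c2. In T3-treated WT mice it ran Sult1a1, Papss2, Sult1d1, Sult1e1, Sult5a1, Sult3a1, Papss1, Sult1b1 and Sult1c2, and every pair of neighbours overlapped in range.

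The second comparison asked how the same genes differ when NCOR1 cannot bind TR in the absence of T3. Papss2 and Sult1d1 were higher in hypothyroid L-NCOR1ΔID than in hypothyroid WT liver, Sult1e1 was higher in every mutant library without passing the threshold, and the other 6 genes overlapped between the groups. The 2 genes called higher (limma, adjusted p under 0.01) compare with 0.725% of 13790 tested genes called higher. None of the 9 was called lower, a call made for 0.544% of tested genes. At an unadjusted p under 0.05, limma had 3 of the 9 higher and 0 lower, a count without a computed share over all genes. Groups did not overlap with the mutant higher for 3 of the 9 genes, against 7.78% of tested genes, and the mutant was lower without overlap for 0 of the 9, against 5.36%. In either direction 1.27% of tested genes were called. The median log2 fold change was 0.22 over the 9 genes and 0.03 over all tested genes.

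Papss2 read 94.3, 112, 92.6 and 93.4 RPKM in mutant replicates 1 to 4, all above the 49.0 RPKM of the highest hypothyroid WT library and below the 172 RPKM of the lowest T3-treated one. It was higher by 1.30 ± 0.11 on the log2 scale (adjusted p = 0.00050, limma), and by 1.24 without mutant replicate 2. In log2 units this difference was 51.4% of that between T3-treated and hypothyroid WT mice, which rests on the same hypothyroid WT libraries.

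Sult1d1 read 123, 133, 101 and 119 RPKM in the mutant replicates, again above every hypothyroid WT library. It was higher by 0.66 ± 0.10 on the log2 scale (adjusted p = 0.0080, limma), and this value was near the threshold. Leaving out 1 library gave adjusted p values up to 0.030, and in 7 of these 8 fits Sult1d1 was no longer called.

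Sult1e1 varied widely among the mutant mice, with 1.78, 19.8, 3.42 and 28.9 RPKM in replicates 1 to 4. Replicates 2 and 4 reached the level of the lowest T3-treated library, while replicates 1 and 3 stayed closer to the 1.02 RPKM of the highest hypothyroid WT library. The log2 fold change was 3.37 ± 0.82 with an adjusted p of 0.054 from limma, and rank 11 from the highest of 13790 tested genes. The alternatives gave values from 2.47 to 4.06, with adjusted p values between 0.021 and 0.15 in limma.

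The T3-induced genes Sult5a1 and Sult3a1 did not share this pattern. Sult5a1 read 1.06, 0.682, 3.91 and 9.16 RPKM in the mutant, a log2 fold change of 0.06 ± 0.92 (adjusted p = 0.98, limma). Sult3a1 read 0.158, 0.096, 0.387 and 0.047 RPKM, a log2 fold change of 0.58 ± 0.43 (adjusted p = 0.48, limma), from 2 to 18 reads per library. Both genes overlapped with hypothyroid WT, and the error of Sult5a1 leaves room for differences of more than 1 log2 unit in either direction.

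Sult1b1 read 11.9, 15.1, 12.5 and 14.5 RPKM in the mutant replicates, with a log2 fold change of -0.09 ± 0.09 (adjusted p = 0.60, limma). Sult1c2 had a log2 fold change of 0.03 ± 0.16 and Papss1 of 0.18 ± 0.12, with adjusted p values of 0.94 and 0.45 from limma. Sult1a1 read 150, 326, 188 and 187 RPKM, and its log2 fold change of 0.22 ± 0.23 (adjusted p = 0.62, limma) rested on replicate 2, being -0.005 without it.

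**Figure D3:**
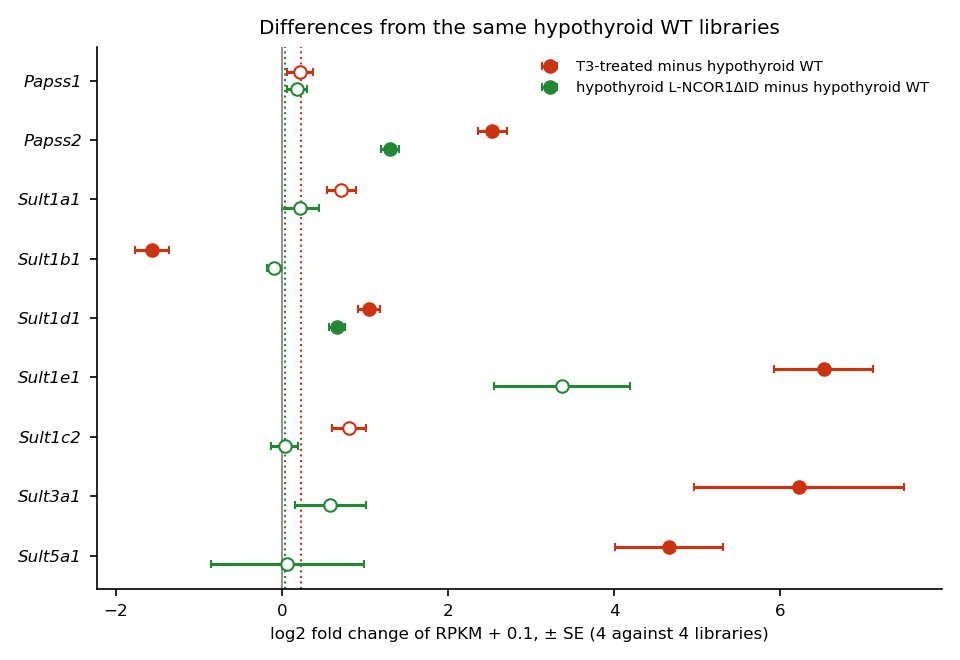
Log2 fold change of RPKM + 0.1 with its standard error for each gene, T3-treated minus hypothyroid WT in red and hypothyroid L-NCOR1ΔID minus hypothyroid WT in green, each from 4 against 4 libraries. Filled points passed the threshold of their comparison, dotted lines mark the median of all tested genes, and both comparisons share the hypothyroid WT libraries. Papss2 and Sult1d1 are filled in both, and Sult1b1 alone lies to the left with T3.

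The third comparison set T3-treated WT directly against hypothyroid L-NCOR1ΔID liver, where hormone and genotype both differ and cannot be told apart. Papss2, Sult3a1 and Sult5a1 were higher with T3 and Sult1b1 was lower. The 3 higher genes compare with 5.52% of 14017 tested genes and the 1 lower gene with 3% of them, or 8.53% in either direction, at the threshold used for T3 above. Groups did not overlap with T3 higher for 4 of the 9 genes, against 28.7% of tested genes, and with T3 lower for Sult1b1, against 9.57%. The median log2 fold change was 0.78 over the 9 genes and 0.19 over all tested genes.

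Sult5a1 was higher by 4.60 ± 0.69 (adjusted p = 0.0012) and Papss2 by 1.23 ± 0.17 (adjusted p = 0.00084) on the log2 scale in limma. Sult1b1 fell by 1.47 ± 0.22 on the log2 scale (adjusted p = 0.0011, limma). Sult3a1 was higher by 5.64 ± 1.28 (adjusted p = 0.0082, limma, and 0.00014 to 0.026 over the alternatives). Only 2 of 4 mutant libraries reached 0.1 RPKM, so that Sult3a1 was again tested because of its level with T3. It lost the call in 11 alternatives, among them every fit that left out a mutant library. Sult1d1 overlapped between these groups, at 0.38 ± 0.15 (adjusted p = 0.066, limma), as did Sult1e1 at 3.15 ± 0.95 (adjusted p = 0.028, limma). A p that misses the threshold does not show that T3-treated and mutant livers were alike in these genes. The Sult1c2 difference of 0.78 ± 0.18 (adjusted p = 0.0091, limma) was under the size threshold.

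With the comparisons side by side, the 5 genes that rose with T3 differed in the mutant. The mutant difference was 63.4% of the T3 difference in log2 units for Sult1d1, 51.7% for Sult1e1 and 51.4% for Papss2, and 9.34% for Sult3a1 and 1.36% for Sult5a1. For Sult1b1 it was 5.96%. These shares use the same hypothyroid WT libraries on both sides and are given as a description.

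Sult1b1, Sult1d1 and Sult1e1 lie side by side on chromosome 5 and are transcribed in the same direction. The cluster spans 78.3 kb on the minus strand (chr5:87942364-88020636, NCBIM37), and GENCODE M1 places no other protein-coding gene inside it. Sult1b1 (chr5:87942364-87967220) fell with T3, while Sult1d1 (chr5:87983670-87998052) and Sult1e1 (chr5:88004993-88020636) rose. In the mutant, Sult1d1 was called higher, Sult1e1 was higher in every library without passing the threshold and Sult1b1 overlapped with WT. Levels also differed within the cluster, and in hypothyroid WT mice the mean of Sult1d1 was 75.0 RPKM, of Sult1b1 14.4 RPKM and of Sult1e1 0.705 RPKM.

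**Figure D4:**
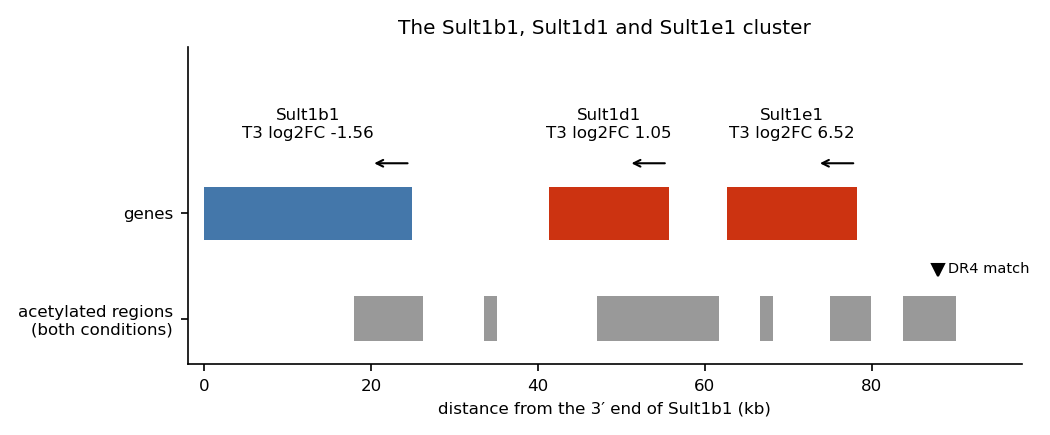
Map of the cluster with gene bodies (blue fell and red rose with T3), arrows for the direction of transcription, grey bars for merged H3 acetylated regions of both conditions, and a triangle at the DR4 match upstream of Sult1e1. The axis is the distance from the 3′ end of Sult1b1 in kb. The start of each gene lies in an acetylated region.

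The deposited list of H3K9 and H3K27 acetylated regions merges both marks and both WT conditions, and holds positions without read numbers. It therefore shows where acetylation was found in at least 1 condition, and not whether it changed with T3. The start site lay in a region for 8 of the 9 genes, a share near the background, since this held for 86.6% of 11809 protein-coding genes tested for T3 and 54.2% of all 22380. Sult3a1 (chr10:33583741-33599322, plus strand) was the exception, with the nearest region 1719 bases downstream of its start, inside the gene. Papss2 (chr19:32694495-32741677, plus strand) was covered by regions of 21035 and 19353 bases, the first across its start and the second in its body, while the median region of the list was 2537 bases long. The region at the start of Papss1 (chr3:131227732-131306634, plus strand) was 2527 bases long.

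The TR binds best to a pair of half-sites in the same direction with 4 bases between them (DR4, AGGTCA repeated after 4 bases of any kind, searched on both strands). Among the regions in or within 10 kb of the 9 genes, a match of at least 11 of the 12 half-site bases was found in 2. Such matches occur in 4.48% of all 37200 regions, and in 1.05% of regions as short as the shortest near these genes and 24.7% of those as long as the longest. Both are shown with their half-sites in capitals, 5′ to 3′ on the strand given.
Upstream of Sult1e1, chr5:88030316-88030331, plus strand: AGGGCActgaAGGTCA
Upstream of Sult5a1, chr8:125686817-125686832, minus strand: AGTTCAactaAGGTCA

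The first lies 9687 bases upstream of the Sult1e1 start in an intergenic region of 6317 bases, and 6.63% of regions of like length hold such a match. The second lies 4609 bases upstream of the Sult5a1 start (chr8:125666747-125682215, minus strand), in the 9534-base region that also covers the start, and 10.1% of regions of like length hold one. The regions at Papss2 had at most 10 matching bases. A match is a description of the letters, and the binding of TR was not analysed here.

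Genes with the most similar pattern over the 12 libraries were listed for each gene called in any comparison, by Pearson correlation of log2(RPKM + 0.1) among 10662 genes with a mean of at least 1 RPKM. The libraries share the same 3 groups, so that any T3-responsive gene scores high. Sult1d1 was most like Papss2 (r = 0.96), followed by Cbr1 and Pdlim1 (both 0.96). Papss2 was most like Map3k13 (0.98), Fbxo4 (0.97) and Cobl (0.97), and Sult5a1 like 9030619P08Rik (0.99), Hopx (0.98) and Kank1 (0.98). Sult1e1 was most like Gsdmd, As3mt and Cdo1 (all 0.95), and Sult3a1 like Sult3a2, Tiparp and Etv3 (all 0.97). Sult1b1 was most like Bphl, Aldh1l1 and Cfi (all 0.98).

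The remaining cytosolic sulfotransferases comprised 13 genes, of which 4 had enough RNA to be tested with T3. Sult2a1 and Sult2a6, hydroxysteroid sulfotransferases, rose from at most 0.031 and 0.033 RPKM to between 0.277 and 1.88 RPKM and between 0.146 and 0.784 RPKM. Neither reached 0.1 RPKM in any hypothyroid WT or mutant library, so that both were tested because of their level with T3. Sult2a7 fell by 2.40 ± 0.46 on the log2 scale (adjusted p = 0.0026, limma), from 2.32 to 4.66 RPKM in hypothyroid WT and from 0.105 to 0.804 RPKM with T3. Sult2a8, the abundant bile acid sulfotransferase, read from 112 to 220 RPKM and from 185 to 227 RPKM, and overlapped. None of the 2 genes tested in the mutant was called, nor had any an unadjusted p under 0.05 in limma. Against the mutant, Sult2a1 and Sult2a6, again tested because of their level with T3, were higher with T3 and Sult2a7 lower, of 5 tested. The Sult2a genes are near copies of each other, and the counting may split reads among them, so that their separate values are uncertain. The same holds for Sult3a2, which is listed at 0 in every hypothyroid WT library and read 5.21, 13.6, 2.62 and 0 RPKM with T3. Its level was 17.7%, 18% and 15.5% of Sult3a1 in T3-treated replicates 1 to 3.

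The steps before and after sulfation were covered by lists of genes. Of 6 tested genes for sulfate and PAPS transport and breakdown of the by-product PAP, 0 were called with T3, 3 being higher and 1 lower at an unadjusted p under 0.05 in limma, and the sulfate transporter Slc13a4 fell by 1.24 ± 0.18 on the log2 scale in the mutant (adjusted p = 0.0077, limma). Slc13a4 was a low gene, with means of 0.40 RPKM in hypothyroid WT and 0.11 RPKM in the mutant, near the 0.1 RPKM needed for testing. Against the mutant, 0 of the 6 were called and 5 were higher with T3 at an unadjusted p under 0.05 in limma. Of 11 genes of sulfur amino acid metabolism, listed for sulfate supply, Csad, which diverts cysteine to taurine, rose with T3 by 1.80 ± 0.45 (adjusted p = 0.0089, limma), and Cth, which makes cysteine, was higher in the mutant by 1.17 ± 0.14 (adjusted p = 0.0032, limma). Csad overlapped between the T3 groups, with 45.4 RPKM in hypothyroid WT replicate 3 and 37.8 RPKM in T3-treated WT replicate 1. At an unadjusted p under 0.05, limma had 2 of the 11 higher with T3 and 6 lower. Of 12 tested genes for sulfatases, which remove sulfate groups, and their activators, Arsg rose by 1.31 ± 0.17 and Arsa fell by 2.23 ± 0.24 on the log2 scale with T3 (adjusted p of 0.00038 and 0.00011, limma), and Sulf2 was higher in the mutant by 1.10 ± 0.16 (adjusted p = 0.0072, limma). Sts, the steroid sulfatase gene of this list, had no values. Against the mutant, T3-treated WT liver had more Arsg and less Arsa, Sulf2 and Galns, more Csad and less Cth. Of 15 tested sulfotransferases of the Golgi, which act on proteoglycans and proteins, 1 was called higher with T3, the heparan sulfate enzyme Hs6st1, by 1.15 ± 0.15 (adjusted p = 0.00032, limma), and it was also higher than in the mutant. At an unadjusted p under 0.05, limma had 10 of the 15 higher with T3 and 0 lower. The median log2 fold change of the 15 with T3 was 0.48, against 0.23 over all tested genes. The Golgi list summed to between 107 and 129 RPKM in hypothyroid WT and between 192 and 216 RPKM with T3. Hs6st1 alone had means of 45.3 RPKM in hypothyroid WT and 101 RPKM with T3, and so made up much of this rise. None of 16 was called in the mutant, where limma had 3 higher and 0 lower at an unadjusted p under 0.05.

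Among 10 factors known to control sulfotransferase genes, 3 were called in at least 1 comparison. Nr1i3 (CAR), a xenobiotic receptor, had means of 173 RPKM in hypothyroid WT, 44.4 RPKM with T3 and 81.7 RPKM in the mutant, and fell by 1.97 ± 0.15 with T3 and by 1.07 ± 0.11 in the mutant on the log2 scale (adjusted p of 2.3e-05 and 0.0014, limma). Nr1h4 (FXR), the bile acid receptor, fell by 0.62 ± 0.06 on the log2 scale in the mutant (adjusted p = 0.00088, limma). Esr1, the estrogen receptor, rose with T3 by 2.37 ± 0.28 (adjusted p = 0.00019, limma) and was higher with T3 than in the mutant by 1.43 ± 0.31 (adjusted p = 0.0069, limma). The other 7 factors were called in none of the 3 comparisons. Among them, Nfe2l2 and Nr1i2 were lower with T3 without overlap, by 0.53 ± 0.07 and 0.38 ± 0.08 on the log2 scale (adjusted p of 0.00046 and 0.004, limma). Rxra and Hnf4a were higher with T3 without overlap, by 0.49 ± 0.08 and 0.42 ± 0.09 (adjusted p of 0.0012 and 0.0041, limma). These differences were under the size threshold, which the mutant comparison did not have.

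Because Sult3a1 is known as female-biased, genes that differ between the sexes in liver were measured beside it in these male mice. The 11 male-biased genes summed to between 5473 and 8059 RPKM in hypothyroid WT, between 997 and 2283 RPKM with T3 and between 1963 and 6079 RPKM in the mutant. Mup20 was the largest part of this sum in every library. It alone read from 4006 to 6483 RPKM in hypothyroid WT and from 429 to 1479 RPKM with T3. In the mutant Mup20 read from 1602 to 5036 RPKM. With T3, 5 of the 11 fell, led by Cyp4a12b, Cyp4a12a and Mup20, and Elovl3, Cyp7b1 and Serpina12 rose. Of 15 tested female-biased genes, 5 rose, led by Cyp3a44, Cyp3a16 and Cux2, and 4 fell, Acot3 and Fmo2 among them. Against the mutant, 5 of 14 female-biased genes were higher with T3, led by Cyp3a44, Cyp3a16 and A1bg, and 4 lower, and of the 11 male-biased genes Selenbp2, Elovl3 and Cyp7b1 were higher and 4 lower. In the mutant against hypothyroid WT, Cyp3a16 was called higher and none of the male-biased genes was called, with 0 higher and 4 lower at an unadjusted p under 0.05 in limma. T3-treated replicate 4, with the lowest Sult3a1 of its group, had the highest male-biased sum of the group and a female-biased sum of 104 RPKM, and replicate 2, with the highest Sult3a1, had the lowest male-biased sum and a female-biased sum of 249 RPKM. T3-treated replicate 3 had the lowest female-biased sum of its group, at 94.1 RPKM, with Sult3a1 at 16.9 RPKM. Hypothyroid WT replicates 1 and 4 had female-biased sums of 110 and 113 RPKM, with Sult3a1 at 0.029 and 0 RPKM. In the mutant, replicate 2 had a female-biased sum of 256 RPKM and Sult3a1 at 0.096 RPKM. The female-biased sums also rested on few genes. Cyp2a4 read 162 RPKM in mutant replicate 2, and Cyp3a16 and Cyp3a44 read 104 and 93.8 RPKM in T3-treated replicate 2. The part of these genes in the Sult3a1 result was not tested.

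**Figure D5:**
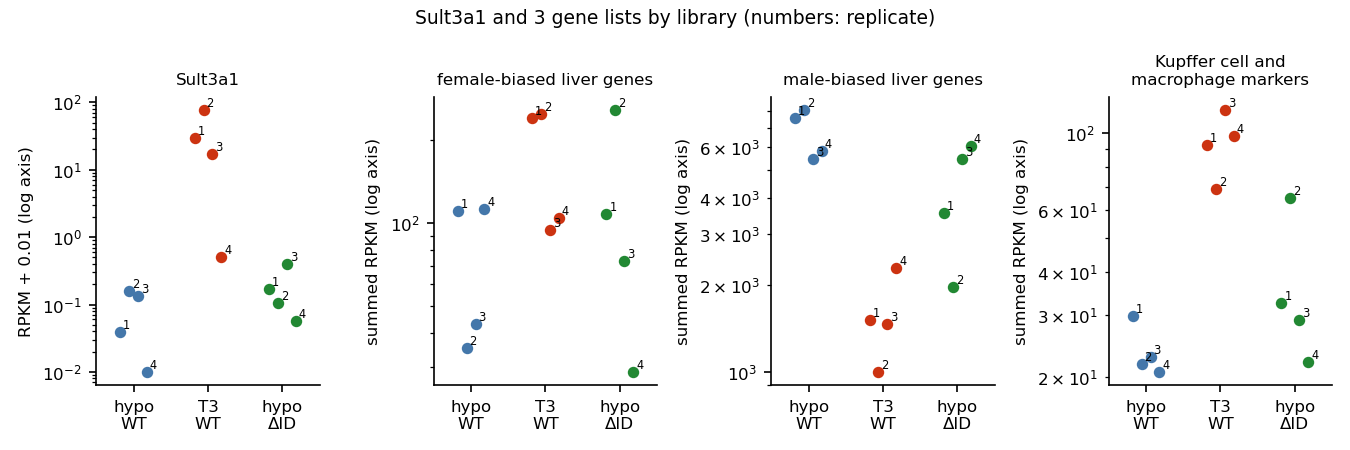
Sult3a1 (RPKM + 0.01) and the summed RPKM of 16 female-biased genes, 11 male-biased genes and 4 Kupffer cell and macrophage markers in each library, on log axes, with the replicate number beside each point. The male-biased sum is lower and the macrophage sum higher in all T3-treated libraries than in any hypothyroid WT library, and mutant replicate 2 has the highest female-biased and macrophage sums and the lowest male-biased sum of its group. Mup20 is the largest part of the male-biased sum in every library.

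Markers of other liver cells moved with T3 beside the sulfation genes. All 4 Kupffer cell and macrophage markers with values rose (Marco, Adgre1, Clec4f and Csf1r), and their sum ranged from 20.7 to 29.8 RPKM in hypothyroid WT, from 69.3 to 116 RPKM with T3 and from 22.1 to 65.0 RPKM in the mutant, with 2 of the 4 higher with T3 than in the mutant. Of 6 leukocyte markers 3 rose with T3 (S100a9, S100a8 and Ptprc), with sums from 1.95 to 4.57 RPKM in hypothyroid WT, from 5.19 to 22.3 RPKM with T3 and from 1.92 to 4.28 RPKM in the mutant. Krt7 among 5 cholangiocyte markers rose with T3, at low means of 0.31 RPKM in hypothyroid WT and 0.84 RPKM with T3. Sox9 of the same list was lower in every T3-treated library, by 0.73 ± 0.17 on the log2 scale (adjusted p = 0.0071, limma), under the size threshold. Lyve1 among 5 endothelial markers rose with T3, and 0 of 5 stellate cell markers were called, with 3 higher at an unadjusted p under 0.05 in limma. Of 6 hepatocyte markers, Ttr and Alb fell with T3, their list summing to between 37973 and 49537 RPKM in hypothyroid WT, between 19825 and 28510 RPKM with T3 and between 31691 and 35897 RPKM in the mutant. In the mutant, none of the markers of these 6 cell types was called. At an unadjusted p under 0.05 in limma, 3 of 5 stellate, 1 of 5 endothelial, 1 of 4 Kupffer cell and macrophage and 1 of 6 leukocyte markers were higher in the mutant, and 1 leukocyte and 1 hepatocyte marker were lower. Between T3-treated WT and mutant mice, Ttr was lower and the leukocyte markers S100a9 and Cd3e were higher with T3. The part of these cell types in the results on the 9 genes was not tested.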

How the data were processed

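Liver poly(A) RNA-seq of 12 libraries (3 groups of 4) was analysed. The deposited values are RPKM per RefSeq transcript, which the authors made by aligning reads to mm9 with STAR and quantifying with HOMER (versions not given in the sources used here). The deposited list of acetylated regions gives start and end positions only. Other ChIP-seq data were not analysed here, and 0 columns of per-sample values were left unused.

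The first of several rows per gene was taken, and 1 row without a gene name (at most 0.00079% of summed RPKM) was left out. Genes that reached 0.1 RPKM in 4 or more of the libraries compared were tested as log2(RPKM + 0.1) with limma 3.58.1 (R 4.3.3, variance trend, Benjamini-Hochberg adjustment). A fold change is on this scale, which understates changes of low genes. The mutant comparison had no size threshold. The share of all tested genes at an unadjusted p under 0.05 was not computed, so that counts at that level have no background beside them. Read totals are not part of the deposited values, so that only relative depth was recovered, from the smallest steps between values. Sums, shares and motif searches were made with Python 3.11.15, numpy 2.4.6 and pandas 2.3.3, and figures with matplotlib 3.10.9. The limma fit was tested on simulated data.

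The 9 genes and the other lists were chosen with earlier results of these data known. All 9 were described whatever their values. From other lists, up to 3 called genes with the largest change per comparison were named by rule. Further genes were named where a small count or a limit rests on them, and some counts are given without their genes. For each of the 9 genes called in at least 1 comparison, the 3 most similar genes were named. The values of 1 gene that this rule names are not reported here. Alternatives were other pseudocounts, filters, rows, scaling, thresholds and fits, a replicate block, a 1 kb window around start sites and leaving out each library.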

Additional observations from a re-analysis of the deposited data

Results flagged for a closer look

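In groups of 4 libraries, the gap between the most extreme library and its nearest neighbour was compared with the whole range (Dixon's test at the 95% level). Over 132 sets of 4 values from 44 genes, chance alone gives about 1 such library in 20 sets. Causes were not tested.

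Among the 9 genes, Sult5a1 in hypothyroid WT replicate 3 read 9.41 RPKM, with 0.609 to 1.95 RPKM in the others. Papss2 in the same library read 49.0 RPKM, with 36.4 to 37.7 RPKM in the others. Papss2 in L-NCOR1ΔID replicate 2 read 112 RPKM, with 92.6 to 94.3 RPKM in the others. All 3 values were high, and leaving out hypothyroid WT replicate 3 gave Papss2 log2 fold changes of 2.63 with T3 and 1.40 in the mutant.

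Hypothyroid WT replicate 3 also stood apart for Dio1 (57.7 RPKM, others 0.719 to 8.98) and Marco (0.950 RPKM, others 0.232 to 0.320). L-NCOR1ΔID replicate 2 also stood apart for Marco (29.1 RPKM, others 0.647 to 4.62) and Esr1 (5.71 RPKM, others 2.61 to 3.10).

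Among other sulfotransferases, Sult2a6 stood apart in hypothyroid WT replicate 1 at 0.033 RPKM with the others at 0, in T3-treated WT replicate 1 at 0.784 RPKM with the others from 0.146 to 0.199, and in L-NCOR1ΔID replicate 3 at 0.024 RPKM with the others at 0. Where all others are at 0 the gap equals the range whatever the value, so that such a flag carries no weight. Sult2a7 in hypothyroid WT replicate 1 read 4.66 RPKM, with 2.32 to 2.67 in the others. Of the remaining genes, Acot3 in T3-treated WT replicate 3 read 0.271 RPKM (others 0.074 to 0.107), Cyp4a12a in hypothyroid WT replicate 2 read 217 RPKM (others 203 to 205), Krt7 in the same library read 0.428 RPKM (others 0.263 to 0.282), and Ttr in T3-treated WT replicate 4 read 1843 RPKM (others 1341 to 1423).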

How the results depend on the processing

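Of 481 recomputed log2 fold changes of the 9 genes, 437 kept their direction and side of the threshold, 30 lost the call, 2 gained it and 12 changed sign, none of the latter having been called. The number of the 9 genes higher in L-NCOR1ΔID (2) was 1 without a filter on low values, 1 with all 12 libraries in 1 fit, 1 without a variance trend and 0 with the replicate number as a block, where Papss2 had an adjusted p of 0.010 from limma. Leaving out each library gave 1 to 2 in that comparison, 4 to 5 higher and 1 lower with T3, and 2 to 3 higher and 1 lower for T3 against the mutant. Signs changed for Papss1 between T3-treated WT and mutant, at -0.15 after scaling by the median of gene ratios and from -0.0895 to 0.15 over left-out libraries, and in the mutant for Sult1a1 (-0.005 to 0.37), Sult1c2 (-0.0907 to 0.15) and Sult5a1 (-0.58 to 0.74). The causes were not tested.

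Over all genes, a pseudocount of 1 gave 575 higher and 319 lower with T3 and 480 higher for T3 against the mutant. Mutant calls were 20 higher and 25 lower with the block, 63 higher without a variance trend, 118 lower with all 12 libraries, 344 and 257 at an adjusted p under 0.05, and 36 to 110 and 28 to 77 over left-out libraries. Same-numbered libraries correlated from -0.06 to 0.07 (T3), -0.12 to 0.17 (mutant) and -0.08 to 0.01 (T3 against mutant). In the same order, libraries of unlike number correlated from -0.08 to 0.07, -0.22 to 0.21 and -0.03 to 0.06. Of 4 libraries, 2, 2 and 0 were closest to their own number. So few libraries cannot show whether the replicate numbers pair them. With 4 libraries per group and unknown read totals, low genes such as Sult3a1 without T3 rest on few reads.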
